A study of Homo sapiens with 12 samples.

Results

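MT-TN encodes mt-tRNAAsn, the mitochondrial tRNA that carries asparagine. It is 1 gene, chosen by the MPAT-Seq values at +1, +2 and beyond +3 described below, in which earlier results of these data showed many reads without the CCA end, so those values are a description and not a test. It is 1 of the 22 mt-tRNA genes with 3' end reads and 1 of the 35 genes with RNA-seq counts. MPAT-Seq joins a linker to RNA 3' ends and amplifies from a gene-specific primer up to that linker, so a read shows the end of the mt-tRNA with anything added to it. The paper cautions that reverse transcription must pass modified bases, which might overstate additions on molecules without those modifications compared with mature ones. Percentages below are therefore shares of reads and may differ from shares of mt-tRNAAsn molecules. There was 1 MPAT-Seq library for each of 6 conditions and RNA-seq of mitochondria-enriched RNA from 3 samples of each of 2 genotypes. 

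All samples were HEK293T, a line derived from human embryonic kidney, of the Flp-In T-REx kind, into which a doxycycline-inducible transgene can be placed. PDE12 is a mitochondrial exoribonuclease that removes adenines from RNA 3' ends. PDE12+/+ cells carry the intact gene, and the PDE12-/- cells were 1 clone with a frameshift in both copies made with zinc finger nucleases. The other libraries were PDE12-/- cells with induced wild-type PDE12 (WT), PDE12-/- cells with induced E351A, a mutant of its catalytic site, and cells of both genotypes with induced mtPAP, the mitochondrial poly(A) polymerase. For the mtPAP libraries, the PDE12 genotype of the deposited labels was the opposite of that in the names of the deposited files and in the title line inside the tables. The MT-TN table of the library labelled PDE12+/+ had the title line of PDE12-/- and matched the study's source sheet of that name at 14 of 14 positions, and the table of the library labelled PDE12-/- had the title line of PDE12+/+ and matched that sheet at 13 of 13. Both libraries are therefore named here by their labels, as "labelled PDE12+/+" and "labelled PDE12-/-", and no effect of genotype is drawn from them alone.

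A mitochondrial tRNA is cut out of a long precursor RNA, at its 5' end by RNase P and at its 3' end by RNase Z, and CCA is then added to its last base by a nucleotidyltransferase. The last base is called the discriminator base, and the CCA that follows is where the amino acid is attached. MT-TN lies with MT-TW, MT-TA, MT-TC and MT-TY in a cluster in which MT-TW is encoded on the other strand, and the origin of light-strand replication lies between MT-TN and MT-TC.

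MT-TN spans chrM:5657-5729 on the − strand of GRCh38, 73 nt without introns or untranslated regions, with G as its discriminator base. The whole gene is shown because the primer and the 3' end both lie in it, with the discriminator base in capitals:
MT-TN: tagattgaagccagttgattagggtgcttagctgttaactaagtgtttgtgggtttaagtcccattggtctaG
The amplification primer equals the first 26 bases of the gene, which leaves 47 bases of mt-tRNAAsn between the primer and the 3' end:
MPAT primer: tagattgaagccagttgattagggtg
The next sequences set the mature end, with CCA in capitals, beside what the genome encodes at chrM:5650-5668 on the − strand, with the bases after the discriminator base in capitals:
Mature end: ccattggtctagCCA
Encoded end: ccattggtctagTAAGGGC
The first encoded base, at 5656, is the 1 base between MT-TN and MT-TA, and the rest are the first bases of MT-TA. Position +1 is C in the mature end and T (U in RNA) in the genome. Position +2 is C or A, and +3 is A in both. U at +1 and A at +2 thus mark reads without CCA directly after the discriminator base, and A at +3 marks nothing. A at +2 is the encoded base as well as what a poly(A) tail would give, and these cannot be told apart.

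MT-TN was deeply read in every library. Reads covering its discriminator base numbered 70527 in PDE12+/+, 33964 in PDE12-/-, 68429 with WT, 89566 with E351A, 48555 in the mtPAP library labelled PDE12+/+ and 15535 in that labelled PDE12-/-. The median of the other 21 mt-tRNAs lay between 2799 and 16934 reads. The WT library stood apart from the others: a median of 38.7% of the reads of the other 21 mt-tRNAs ended before +3 in it, against 3.55% to 10.1% in the other 5 libraries. Intervals below are 95% Wilson intervals, which cover counting error only, since the reads were amplified without molecular identifiers and no condition had a replicate.

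Uracil at +1, the base that the genome encodes there, was more frequent in mt-tRNAAsn than in any other mt-tRNA. It was read at +1 in 23.3% of reads in PDE12+/+ (interval 23.0 to 23.6) and in 24.6% with E351A (24.3 to 24.8). It was read in 6.45% in PDE12-/- (6.20 to 6.72) and in 7.92% with WT (7.71 to 8.13). The mtPAP libraries had 14.6% (14.3 to 15.0, labelled PDE12+/+) and 3.93% (3.64 to 4.25, labelled PDE12-/-). PDE12+/+ and E351A were thus the highest. None of the 6 intervals overlapped another, which does not measure the spread between cultures.

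In each of the 6 libraries MT-TN ranked first of 22 in uracil at +1. Of the 22 mt-tRNA genes, 4 are followed in the genome by T, namely MT-TN, MT-TP (mt-tRNAPro), MT-TS1 (mt-tRNASer of UCN codons) and MT-TW (mt-tRNATrp). MT-TP had 11.3% in PDE12+/+, 3.62% with WT, 2.23% in PDE12-/-, 1.13% with E351A, and 0.491% and 1.03% in the mtPAP libraries labelled PDE12+/+ and PDE12-/-. Its highest value was that of PDE12+/+, and E351A was not its second. MT-TS1 had 7.36% with E351A, 2.83% in PDE12+/+, 1.35% with WT and 0% in the other 3 libraries, with between 41 and 520 reads at the discriminator base outside E351A. MT-TW had 0.563% with E351A, 0.437% in PDE12+/+ and at most 0.301% in the other libraries. MT-TS1 and MT-TW thus had the same 2 highest libraries as MT-TN, at lower values. Outside E351A their uracil rested on few reads, and the order of their libraries was not tested. In PDE12+/+ the reads at the discriminator base numbered 254 for MT-TS1 and 5727 for MT-TW. In the 18 mt-tRNAs with another base encoded there, uracil at +1 had a median of 0.0273% over 108 values and a maximum of 0.238%. Their own encoded base was frequent in some of them. MT-TI (mt-tRNAIle), with G encoded, had G at +1 in 13.8% of reads with WT, above the 7.92% of uracil in MT-TN. MT-TI had 9.68% with E351A and at most 1.63% in the other libraries. MT-TS2 (mt-tRNASer of AGY codons), with A encoded, had A in 8.07% to 93.3%, and A could also come from a tail.

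**Figure D1:**
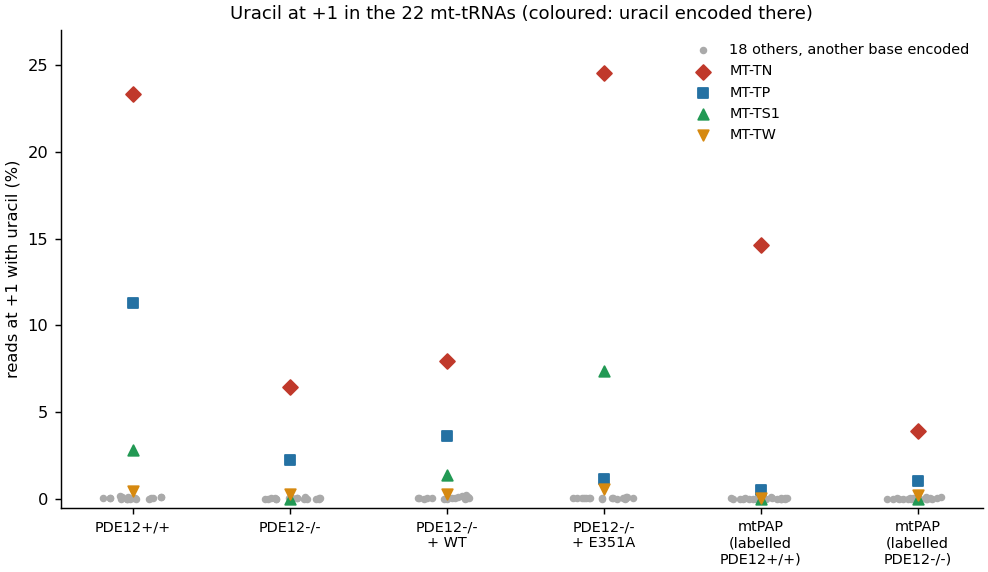
Reads at +1 with uracil, in percent (linear axis), for the 22 mt-tRNAs in the 6 MPAT-Seq libraries, each point being 1 mt-tRNA. MT-TN (red diamonds) is the highest in every library, from 3.93% to 24.6%, and the 18 mt-tRNAs with another base encoded at +1 (grey) stay at or under 0.238%.

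Adenine at +2, where the mature end has its second C, followed the same order of libraries at the top. It made up 33.1% of reads at +2 in PDE12+/+ (interval 32.7 to 33.4) and 34.9% with E351A (34.6 to 35.2). It made up 8.73% in PDE12-/- (8.43 to 9.04), 9.19% with WT (8.95 to 9.43), 8.74% in the mtPAP library labelled PDE12+/+ (8.48 to 8.99) and 10.7% in that labelled PDE12-/- (10.2 to 11.2). The values of PDE12-/-, WT and the mtPAP library labelled PDE12+/+ overlapped in their intervals. By counting error alone, the other 3 stood apart from each other and from these. The difference of PDE12-/- from PDE12+/+ was −24.4 percentage points (interval −24.8 to −23.9). The median difference of the other 21 mt-tRNAs was −0.769, with 14 lower and 7 higher. MT-TN was not the highest of the 22 in this measure, with rank 3 in PDE12+/+ and between 5 and 7 in the other libraries. In PDE12+/+ it came after MT-TS1, at 40.9% over 254 reads at the discriminator base, and MT-TI (mt-tRNAIle), at 37.9% over 226. Adenine at +2 was also lower in PDE12-/- than in PDE12+/+ in MT-TS1 (15.8%, over 41 reads at the discriminator base), in MT-TS2 (mt-tRNASer of AGY codons, 28.9% and 15.3% in PDE12+/+ and PDE12-/-) and in MT-TQ (mt-tRNAGln, 12.7% and 4.36%).

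Adenine at +1 and at the discriminator base showed the same pair of high libraries. Adenine at +1 was 12.5% in PDE12+/+ and 11.8% with E351A, against 2.88% in PDE12-/-, 1.69% with WT, and 0.910% and 9.20% in the mtPAP libraries labelled PDE12+/+ and PDE12-/-. In place of the encoded G at the discriminator base, adenine was read in 11.7% of reads in PDE12+/+ (interval 11.5 to 12.0) and in 10.4% with E351A (10.2 to 10.6). The other libraries had 1.93% (PDE12-/-), 1.44% (WT), 0.980% (labelled PDE12+/+) and 5.92% (labelled PDE12-/-). Within each library, adenine at the discriminator base and at +1 lay within a few percentage points of each other. C at the discriminator base reached 2.43% with E351A and 1.69% with WT.

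**Figure D2:**
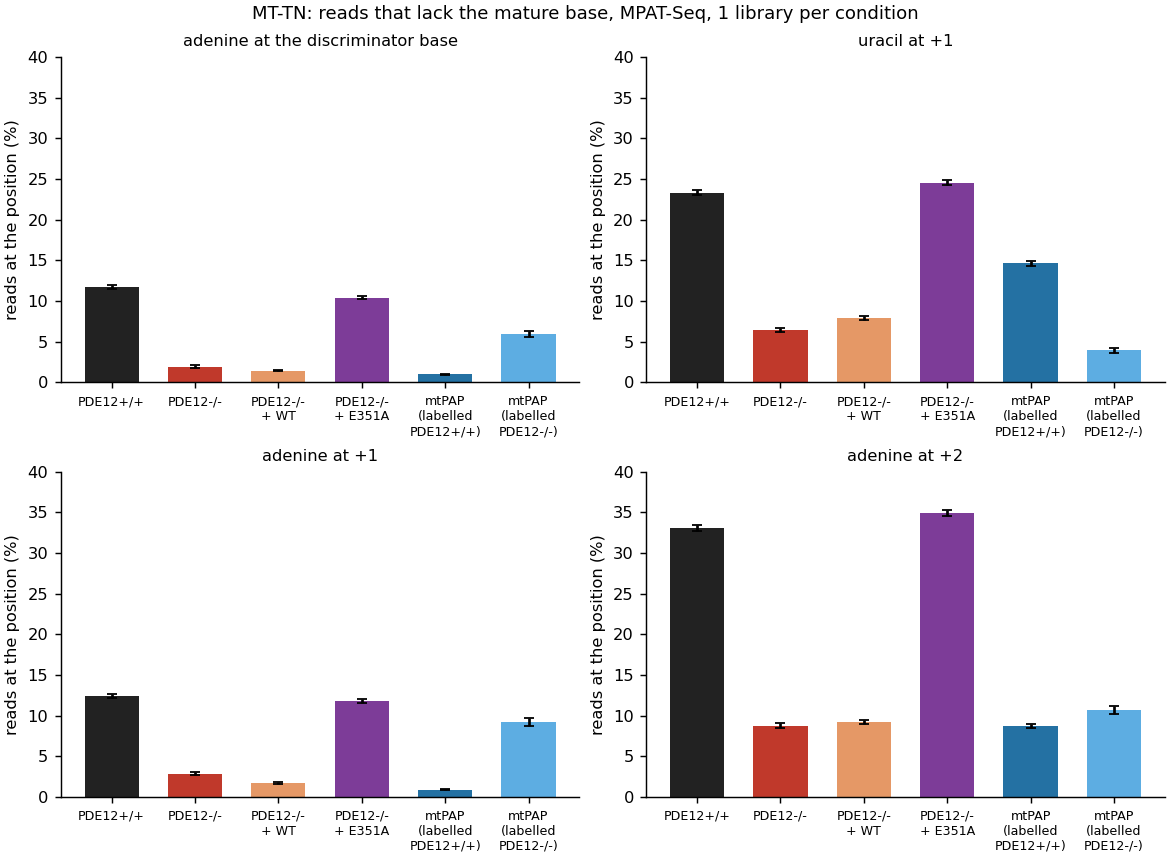
Reads of MT-TN with a base that differs from the mature one, as a percentage of reads at the position (linear axes from 0), in the 6 MPAT-Seq libraries, with bars for 1 library each and error bars for 95% Wilson intervals. PDE12+/+ and E351A are the 2 highest libraries in all 4 panels, at 33.1% and 34.9% for adenine at +2.

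The bases at +1 and +2 were then set side by side. Uracil and adenine at +1 together made up 35.8% of reads at +1 in PDE12+/+, where adenine at +2 made up 33.1%. The corresponding values were 9.34% and 8.73% in PDE12-/-, 9.61% and 9.19% with WT, and 36.4% and 34.9% with E351A. In these 4 libraries the reads with U or A at +1 and the reads with A at +2 thus made up similar percentages, with 25100 and 22478 reads in PDE12+/+ and 6347 and 5173 with WT, where more reads ended between the positions. The tables count each position alone and do not say which bases stood in 1 read. The mtPAP library labelled PDE12-/- had 13.1% at +1 and 10.7% at +2. That labelled PDE12+/+ was farthest from equal, with 15.5% at +1 and 8.74% at +2. It had 43158 reads with C at +2 and only 40814 with C at +1, so at least 2344 reads, 4.95% of those at +2, had another base at +1 and C at +2. That floor was 0.396% in PDE12+/+, 0.796% with E351A and 0 reads in the other libraries. C at +3, which neither the mature nor the encoded end has, was read in 894 reads in PDE12+/+ (1.38%) and 1110 with E351A (1.30%). Each of the other libraries had at most 12 such reads.

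The counts still bound how many reads had C at both positions. At least 29.1% and at most 66.0% of reads at +2 did in PDE12+/+, and between 28.2% and 64.2% with E351A. The range was 81.5% to 91.2% in PDE12-/- and 78.9% to 90.5% with WT. It was 75.2% to 86.2% in the mtPAP library labelled PDE12+/+ and 75.2% to 89.3% in that labelled PDE12-/-. Whatever the pairing of bases within reads, at least 34.03% of mt-tRNAAsn reads in PDE12+/+ lacked the pair of Cs and at most 18.5% did in PDE12-/-. The ranges of PDE12+/+ and E351A lay wholly below those of the 4 other libraries. Between PDE12-/- and PDE12+/+ the ranges lay apart in this direction for 9 of the 22 mt-tRNAs, MT-TN included, and in the opposite direction for MT-TC alone.

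The encoded G of MT-TA at +4, +5 and +6 was next counted, since a read that follows the genome that far shows G at each. G at +4 was read in 202 of the reads at +4 in PDE12+/+, 0.824%, in 243 with E351A, 0.472%, and in between 0.0302% and 0.194% in the other libraries. At +5 it was 1.06% in PDE12+/+, 0.567% with E351A and 6.89% with WT (270 reads), and at most 0.103% in the other 3. At +6 it was 2.61% in PDE12+/+ (380 reads), 0.0936% with E351A, 5.30% with WT (146 reads) and at most 0.175% in the other 3. With WT, 9 reads had G at +4, so at most 9 could follow the genome through +4, and most of its G at +5 and +6 stood in reads with another base at +4. C at +7, the next encoded base, was read in 5 reads in PDE12+/+ and 32 with E351A. Reads that ended at +1, +2 or +3 could still hold only encoded bases, and these positions do not separate such reads from tails.

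Extension beyond +3 was measured as the reads at +4 over the reads at +3. It was 37.9% in PDE12+/+ (interval 37.5 to 38.2), 26.5% in PDE12-/- (26.06 to 27.04) and 10.6% with WT (10.3 to 10.9). It was 60.4% with E351A (60.0 to 60.7), 81.8% in the mtPAP library labelled PDE12+/+ (81.5 to 82.2) and 16.0% in that labelled PDE12-/- (15.4 to 16.6). No interval overlapped another, though these cover counting error only. From the lowest to the highest, the order was WT, mtPAP labelled PDE12-/-, PDE12-/-, PDE12+/+, E351A and mtPAP labelled PDE12+/+.

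The difference of PDE12-/- from PDE12+/+ was −11.3 percentage points (interval −11.9 to −10.7), while 18 of the other 21 mt-tRNAs were higher and their median difference was 11.5. The difference of WT from PDE12-/- was −16.0 percentage points, and 19 of the other 21 were lower too. Taken over the reads at the discriminator base, because many WT reads ended early, the values were 6.77% with WT and 24.5% in PDE12-/-. With E351A it was 33.8 percentage points above PDE12-/-, with 18 of 21 higher. By label, the mtPAP library of PDE12+/+ was 43.96 percentage points above PDE12+/+ and that of PDE12-/- was lower than PDE12-/- (−10.6). By the file names, title lines and source sheets, the PDE12+/+ library with mtPAP was lower than PDE12+/+ (−21.9) and the PDE12-/- library with mtPAP was 55.3 above PDE12-/-. Among the other 21 mt-tRNAs the median difference by label was 56.9 for PDE12+/+ and −5.48 for PDE12-/-, and by file name, title line and source sheet it was 9.12 and 38.7. The direction of each MT-TN comparison thus differs between the labels and these other 3 records of the genotype.

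This measure mixes reads with and without CCA, because a read that starts its adenines at +1 or +2 also has them at +4. Among reads at +3 with C at +2, the counts allow an extended percentage of 3.95% to 58.5% in PDE12+/+ and of 19.1% to 29.2% in PDE12-/-. These ranges overlap, so the lower extension of PDE12-/- could be of either sign among such reads, from −39.4 to 25.3 percentage points. The ranges were 0% to 12.1% with WT, 37.9% to 94.5% with E351A, 79.9% to 90.3% in the mtPAP library labelled PDE12+/+ and 5.85% to 17.9% in that labelled PDE12-/-. For reads with C at +2, E351A and the mtPAP library labelled PDE12+/+ lay wholly above PDE12-/-, and WT and the mtPAP library labelled PDE12-/- lay wholly below it.

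**Figure D3:**
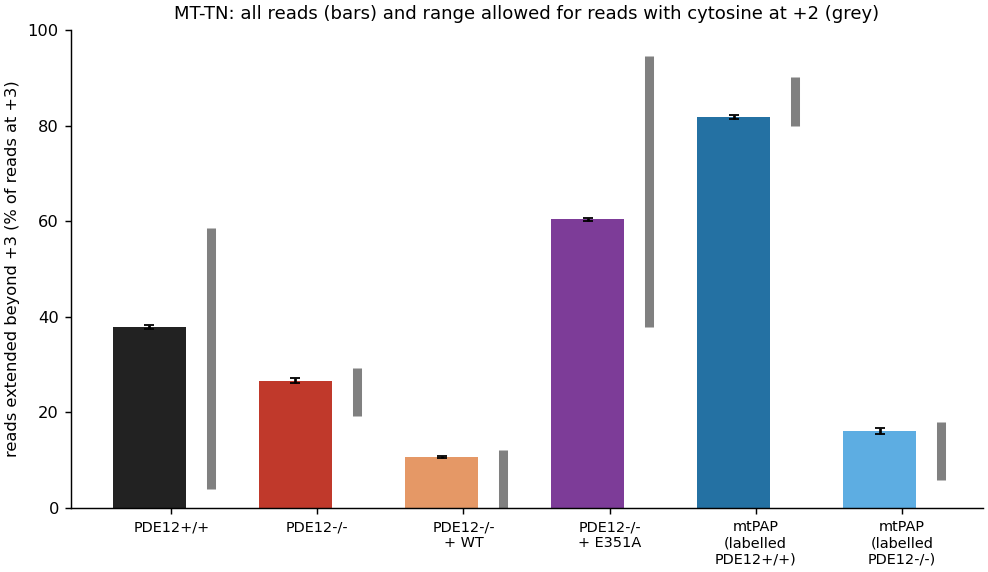
Reads of MT-TN at +4 as a percentage of reads at +3 (linear axis from 0) in the 6 MPAT-Seq libraries, 1 library per bar with its 95% Wilson interval. The grey ranges are the lowest and highest values that the counts allow among reads with cytosine at +2, and that of PDE12+/+, 3.95% to 58.5%, spans that of PDE12-/-, 19.1% to 29.2%.

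The tails were short and made of adenine. The median number of bases beyond +3 in extended reads was 3 in PDE12+/+, PDE12-/-, WT and the mtPAP library labelled PDE12-/-, 4 with E351A and 5 in the mtPAP library labelled PDE12+/+. Tails of 1 base made up 30.1% of extended reads in PDE12-/- (interval 29.1 to 31.1), 19.5% in PDE12+/+ and 1.12% in the mtPAP library labelled PDE12-/-. Tails of at least 5 bases made up 24.9% in PDE12-/-, 29.1% with WT, 33.3% in PDE12+/+, 41.6% in the mtPAP library labelled PDE12-/-, 45.7% with E351A and 56.7% in that labelled PDE12+/+. PDE12-/- thus had the shortest tails of mt-tRNAAsn by this share.

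Adenine made up 93.8% of the bases beyond +3 with WT and between 98.01% and 99.6% in the other libraries. At +4 alone, C was read in 3.63% of extended reads in the mtPAP library labelled PDE12+/+ and in 2.94% with E351A, and in 0.0842% in PDE12-/-. With WT, U was read at +4 in 3.15%. The tables end at +12 or +13, so longer tails were not measured in any library. Of the extended reads, 14.5% in the mtPAP library labelled PDE12+/+ still covered +12. The share was 10.5% with WT, 7.89% with E351A, 6.10% in the mtPAP library labelled PDE12-/-, 4.22% in PDE12+/+ and 1.86% in PDE12-/-.

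**Figure D4:**
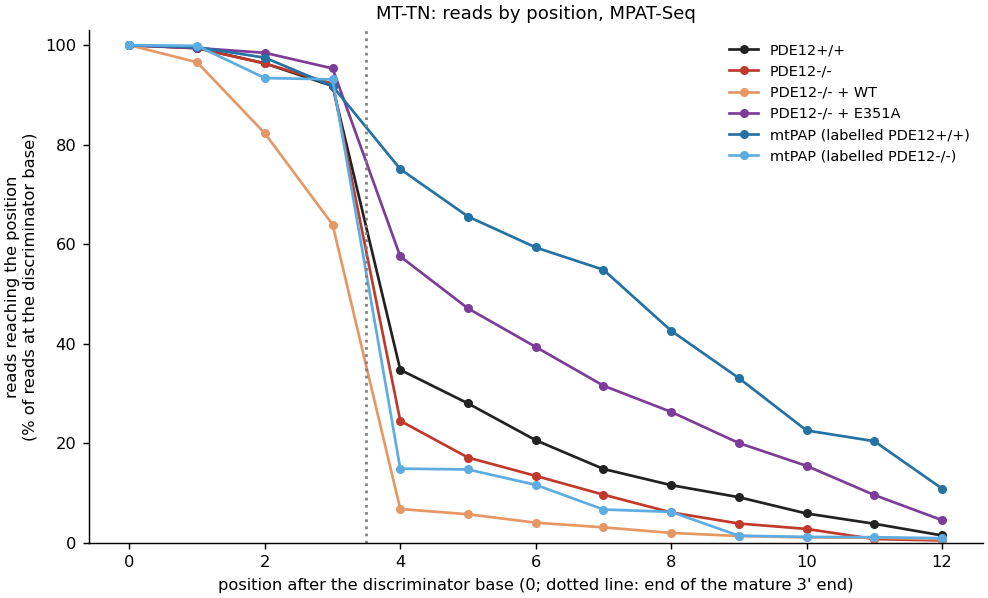
Reads of MT-TN that reach each position after the discriminator base, as a percentage of reads at the discriminator base (linear axis), with 1 line per MPAT-Seq library. The line of WT falls to 63.96% at +3, and the others stay between 91.8% and 95.3% there before they part at +4.

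The stops before the end of CCA differed most in the WT library. There 36.0% of the reads at the discriminator base ended before +3 (interval 35.7 to 36.4), with 14.3% ending at +1 and 18.3% at +2. The other libraries lost 4.67% (E351A), 6.87% (mtPAP labelled PDE12-/-), 7.75% (PDE12-/-), 8.21% (PDE12+/+) and 8.22% (mtPAP labelled PDE12+/+). The other 21 mt-tRNAs of the WT library lost a median of 38.7%, so MT-TN, at rank 12 of 22, was not extreme in it. In the mtPAP library labelled PDE12-/- the loss fell almost wholly at +1, 6.48% against 0.264% at +2.

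Of the 4 neighbours of MT-TN in the cluster, only MT-TW also has T encoded at +1, and uracil there was at most 0.563% in it. MT-TA and MT-TY have G encoded at +1 and MT-TC has C, so encoded uracil could not be read in them. Adenine at +2 was frequent in MT-TC and MT-TY in some libraries. MT-TA (mt-tRNAAla), which starts 1 base after MT-TN in the same precursor, had adenine at +2 in 1.44% of reads in PDE12+/+, 0.674% in PDE12-/- and 2.66% with E351A. Its extension was 21.995% in PDE12+/+ and 71.8% in PDE12-/-, against the lower value of MT-TN in PDE12-/-. MT-TC (mt-tRNACys), which lies 31 nt from the 5' end of MT-TN, had adenine at +2 in 6.70% in PDE12+/+, 10.8% in PDE12-/-, 38.3% with E351A and 48.8% in the mtPAP library labelled PDE12+/+. C is also the base encoded at its +1, so a C there does not mark CCA in MT-TC. MT-TY (mt-tRNATyr) had 15.7% in PDE12+/+, 9.01% in PDE12-/- and 49.9% with WT, the last over 509 reads at the discriminator base. MT-TW had at most 2.53% in any library.

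The pair of libraries with the highest adenine at +2, PDE12+/+ and E351A, was that of MT-TN and MT-TM among the 22 mt-tRNAs. MT-TM (mt-tRNAMet) had it at 1.27% and 1.25%, far below MT-TN. Likeness was measured as the mean absolute difference from MT-TN over the 6 libraries. In extension, the most alike were MT-TS1 at 9.29 percentage points, MT-TW at 11.8 and MT-TF (mt-tRNAPhe) at 13.5, against a median of 21.3 for the 21. MT-TS1 was read at only 37 to 336 reads at +3 in 5 of the libraries. In adenine at +2, the most alike were MT-TL2 (mt-tRNALeu of CUN codons) at 14.1 percentage points, MT-TK (mt-tRNALys) at 14.5 and MT-TD (mt-tRNAAsp) at 14.6, against a median of 16.0. None of these 3 came within 20 percentage points of MT-TN in every library.

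In RNA-seq the level of MT-TN was compared between PDE12+/+ and PDE12-/-. The counts come in a forward and a reverse column, and whether these are strands of the genome or of the gene was not settled. For MT-TN the forward column is antisense under the first reading and sense under the second. All 8 mt-tRNA genes of the − strand had more forward than reverse counts, while the 1 mt-mRNA gene of that strand, MT-ND6, had more reverse counts. The 35 genes are mitochondrial, so the transcript of PDE12 itself and markers of the cell line could not be read from them. The samples held 36338 to 104708 counts over the 70 features, a forward and a reverse count for each of 35 genes. The replicates are numbered samples with no stated separate cultures, so p-values measure the spread between these samples.

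Forward counts of MT-TN were 460, 721 and 985 in PDE12+/+ and 413, 475 and 684 in PDE12-/-, and these overlap. After TMM scaling they were 11597, 8858 and 12574 CPM (scaled counts over the 70 features) in PDE12+/+ (mean 11010 ± 1926, SD, n = 3) and 4479, 6792 and 6899 in PDE12-/- (mean 6057 ± 1367, SD, n = 3). Scaled, every PDE12-/- sample lay below every PDE12+/+ sample. Of all 70 features, 14.3% likewise had no overlap between the genotypes. The log2 fold change was −0.86 (standard error 0.34), with an adjusted p of 0.285 from the quasi-likelihood fit of edgeR (Benjamini-Hochberg). That fit called 0 of the 70 features (0%), with 5 (7.14%) at an unadjusted p under 0.05, and DESeq2 called 0 with 4 (5.71%).

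With the replicate number as a block, the fall of MT-TN forward counts passed the threshold. The log2 fold change was then −0.87 (standard error 0.26), with an edgeR adjusted p of 0.0222. Of the 70 features 5.71% passed in either direction and 4.29% were lower and passed. The paired differences in log2 CPM were −1.37, −0.38 and −0.87. All 3 are negative under any pairing, because every scaled PDE12-/- sample lay below every PDE12+/+ sample, so their sign adds nothing to the fit. The samples favoured pairing by number only narrowly, with a mean correlation of 0.403 against 0.368 for another pairing. The call was lost under the block with other scalings (adjusted p of 0.106 with DESeq2 size factors and 0.167 with library totals in edgeR) and without any 1 replicate number (adjusted p of 0.0999 to 0.832 in edgeR).

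**Figure D5:**
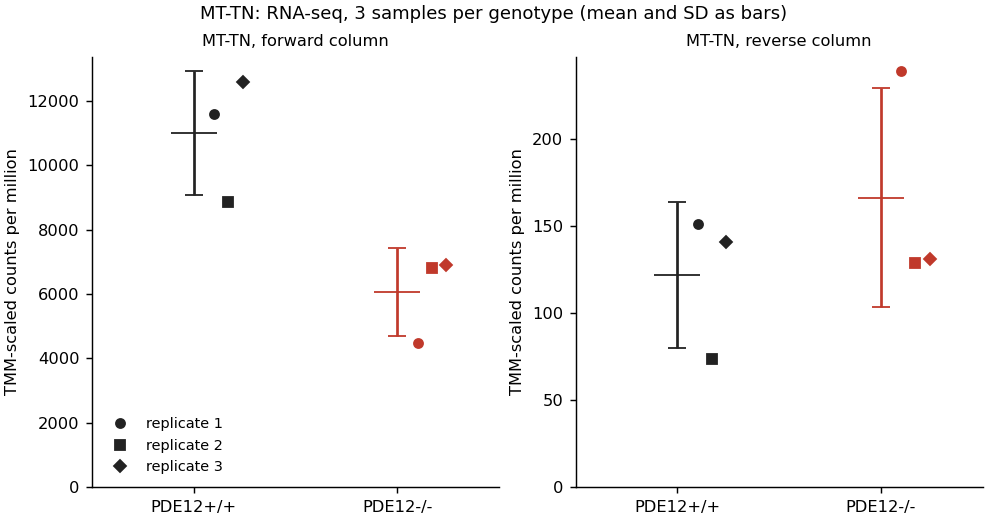
TMM-scaled CPM of MT-TN in the forward and reverse columns (linear axes from 0) for 3 PDE12+/+ and 3 PDE12-/- samples, with bars for the mean and SD and 1 marker shape per replicate number. Forward values of 8858 to 12574 in PDE12+/+ lie above those of 4479 to 6899 in PDE12-/-, and the reverse values overlap.

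Reverse counts of MT-TN were 6, 6 and 11 in PDE12+/+ and 22, 9 and 13 in PDE12-/-. Scaled, they were 122 ± 42.0 CPM in PDE12+/+ and 166 ± 62.8 in PDE12-/- (SD, n = 3), and the groups overlap. The difference was 0.51 on the log2 scale, with a standard error of 0.53 and an edgeR adjusted p of 0.920. The forward column held 98.7% to 99.2% of the MT-TN counts in PDE12+/+ and 94.9% to 98.1% in PDE12-/-.

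The forward counts of the 3 neighbours on the same strand had values like those of MT-TN. Their log2 fold changes were −0.70 for MT-TA, −0.67 for MT-TC and −0.66 for MT-TY, all 3 at an edgeR adjusted p of 0.562. With the replicate block the adjusted p-values were 0.122, 0.104 and 0.122 in the same order. MT-TN had the lowest value of the 4 and was not tested against the others. MT-TW, on the other strand, had 1 to 3 forward counts in each sample and 7 to 20 reverse counts.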

How the data were processed

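RNA of isolated HEK293T mitochondria was sequenced from 3 PDE12+/+ and 3 PDE12-/- samples (RNA-seq), and the MPAT-Seq tables cover 6 conditions with 1 library apiece. Per the labels the MPAT-Seq RNA was also extracted after mitochondrial enrichment, while the study's methods start MPAT from total RNA. The submitters' processing notes name Trim Galore, cutadapt, Bowtie2, SAMtools and DESeq2 and the build GRCh38, with no versions. For RNA-seq, the deposited values are raw read counts per gene and strand column, made by the authors after trimming, mapping, removal of mt-rRNA reads and separation of the strands. For MPAT-Seq, the authors' reference carried undefined bases after each mt-tRNA, so that added bases could be mapped. The deposited tables hold whole-number counts of reads and of each base at each position from the discriminator base on, with header lines repeated inside the files. Neither kind is normalized. The tables of MT-TN were used as printed. Among the other mt-tRNAs, a PDE12+/+ table printed as MT-TT whose first position is the length of MT-TD was read as MT-TD, positions of MT-TY that began before the discriminator base in 3 libraries were shifted, and C counts of MT-TQ in PDE12-/- that did not add up to the total were recomputed from it. The labels call MPAT-Seq targeted resequencing following circularization, while the study's methods describe linker ligation. Samples were grouped by their labels.

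The gene, the lists and the tests were chosen with earlier results of these data known, and the bounds on reads with C at +1 and +2 were added after the values were seen. The genes named besides MT-TN are its 4 neighbours, the 3 mt-tRNAs most like it in extension, the 3 most like it in adenine at +2, and those followed by an encoded T. MT-TM, MT-TI, MT-TS2, MT-TQ and MT-ND6 were named after their values were seen. Bounds assume that each read covers consecutive positions. Shares and Wilson intervals were computed with SciPy 1.17.1 in Python 3.11.15. For RNA-seq, edgeR 4.0.16 (R 4.3.3) modelled the counts of all 70 features on genotype alone, with TMM scaling, a common dispersion, the quasi-likelihood test, two-sided, and Benjamini-Hochberg adjustment over all features at a threshold of 0.05, with no filter on low counts. DESeq2 1.42.0 was used as an alternative. The edgeR fits with and without the block were also run on simulated counts, drawn at the fitted dispersion with no replicate effect. That check therefore cannot say whether the block is valid for these samples. Over 37 features, those that reached 10 counts in each sample, samples of the same replicate number had correlated deviations, at 0.250, 0.345 and 0.613. The numbers were taken to pair the samples on this ground, which is weak. The highest correlation, 0.653, was between unlike numbers, PDE12+/+ replicate 3 and PDE12-/- replicate 2. Another pairing had a mean correlation of 0.368, against 0.403 for the numbered one. The transcript of PDE12, a nuclear gene, was not analysed here.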

Additional observations from a re-analysis of the deposited data

How the results depend on the processing

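The RNA-seq forward value of MT-TN stayed negative under all alternatives, between −1.11 and −0.57 on the log2 scale, and passed the threshold in edgeR's test only with the replicate block (−0.87, adjusted p = 0.0222) and with the block and a trended and tagwise dispersion (−0.87, adjusted p = 0.0219). Leaving out each replicate in turn without the block gave −0.997 to −0.565. Over all alternatives its adjusted p ran from 0.0219 to 0.846. Library totals in place of TMM moved the median of the 70 features from −0.02 to 0.20, and relative to that median MT-TN was at −0.85 with TMM and −0.87 with totals. The reverse value stayed positive, between 0.15 and 0.84, without a call; leaving out replicates gave the same range, and it could not be fitted with at least 10 counts in every sample because it was under that minimum.

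The difference of PDE12-/- from PDE12+/+ in extension was −10.3 percentage points over reads at the discriminator base, −10.2 for A at +4 alone and −11.9 for reads at +5. Among reads with C at +2 the counts allow −39.4 to 25.3, so its sign there is not set. The difference in A at +2 was −26.5 for A and U together at +1, −23.5 over reads at the discriminator base and −24.8 for every base other than C. With genotypes by title line, mtPAP against endogenous mtPAP turned from 43.96 to −21.9 for PDE12+/+ cells and, for PDE12-/- cells, from −10.6 to 55.3. With 1 MPAT-Seq library per condition and no molecular identifiers, the spread between cultures is unknown. The fits with the block in another scaling, with another dispersion or without a replicate number were chosen after seeing the data.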
